A study of Mus musculus with 46 samples.

Results

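Wild type (WT) and ATF4 KO mouse embryonic fibroblasts (MEFs) were compared under borrelidin, an inhibitor of threonyl-tRNA synthetase. Members were chosen by their labels alone, 12 WT and 12 ATF4 KO libraries, which are 24 of the 46 libraries of the series. All 24 cultures had received 600 nM borrelidin for 7 h, in DMSO. The other 22 libraries, 11 of each genotype, had DMSO alone for 7 h and are used here as the vehicle background. WT MEFs were purchased, whereas the ATF4 KO line was made in house by Cas9 editing of Atf4 and cell sorting, and it is 1 line; whether it is 1 clone is not stated. Loss of ATF4 and any other difference between these lines therefore cannot be told apart. The labels give the libraries as biological replicates, so p-values measure the spread between cultures of these lines. In bulk RNA, fewer cells expressing a gene and less RNA per cell cannot be told apart.

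As background, an uncharged tRNA activates the kinase GCN2, which phosphorylates the translation factor eIF2α. General protein synthesis then falls while ATF4, a bZIP transcription factor, is translated more. ATF4 is known to bind amino acid response elements and to drive genes of amino acid supply and tRNA charging, the tRNA synthetases among them. The comparison asks which transcripts were higher or lower where a cell could make ATF4 than where it could not, with both lines under the same drug.

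Counts assigned to gene identifiers ranged from 2047362 to 3043804 per WT borrelidin library and from 2626605 to 3320558 per ATF4 KO borrelidin library. Genes are named only inside 5 stretches of chromosomes 4, 6, 9, 15 and 18 (GRCm38), because identifiers elsewhere in the deposited table did not match the levels of their rows. These stretches hold 1370 of 55416 identifiers and 8.69% of the counts. In them 64.4% of protein-coding genes passed the filter on low counts, against 29.9% elsewhere. The tested genes numbered 390, of which 327 were protein-coding. Atf4 lies outside them, so loss of its own transcript was not analysed here. ATF4 KO borrelidin replicates 1 to 3 came as a separate set: they lay wholly above or below replicates 4 to 12 in 37.3% of the tested rows and in 174 of the 390 genes. The borrelidin comparison was therefore repeated without them. The median coefficient of variation of the 267 better-expressed genes was 12.4% in WT, 15.1% in ATF4 KO, and 8.97% in ATF4 KO replicates 4 to 12.

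Under borrelidin 36 of the 390 genes passed an adjusted p of 1e-10, the threshold the study uses. Of these, 14 were higher in WT (3.59%) and 22 were lower (5.64%). Among all 8986 tested rows the shares were 2.62% higher and 2.87% lower. Calls were uneven between chromosomes: 8 higher and 1 lower of 66 tested on chromosome 15, and 0 and 5 of 26 on chromosome 18. They were 3 and 11 of 217 on chromosome 4, 2 and 1 of 63 on 6, and 1 and 4 of 18 on 9. The part of chromosomal position in this was not tested. At an adjusted p of 0.05, 109 genes were higher and 109 were lower, 27.9% each, beside 24.1% and 25.7% of all rows. The counts of each gene list below are to be read beside these shares. The median log2 fold change, WT minus ATF4 KO, was 0.01 over the 390 genes and -0.04 over all rows. In all 36 called genes the ranges of the WT and ATF4 KO libraries did not overlap, which their choice on these same libraries favours. Over the 390 genes 42 did not overlap with WT higher and 34 with WT lower, against 6.09% and 4.97% of all rows. By at least 4 on the log2 scale, 3 called genes were lower and 1 was higher. By at least 2, 7 of the 22 were lower and 5 of the 14 higher. Of the genes past 4, Pax5, Trim14 (3 to 12 reads per WT borrelidin library) and Mmp3 had few reads in 1 of the lines. By adjusted p the genes higher in WT began with Tars, Ank, Pop1 and Nol6, and those lower in WT with Tdrd7, Ddx58 and Trim14 (the map of called genes by library).

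**Figure D1:**
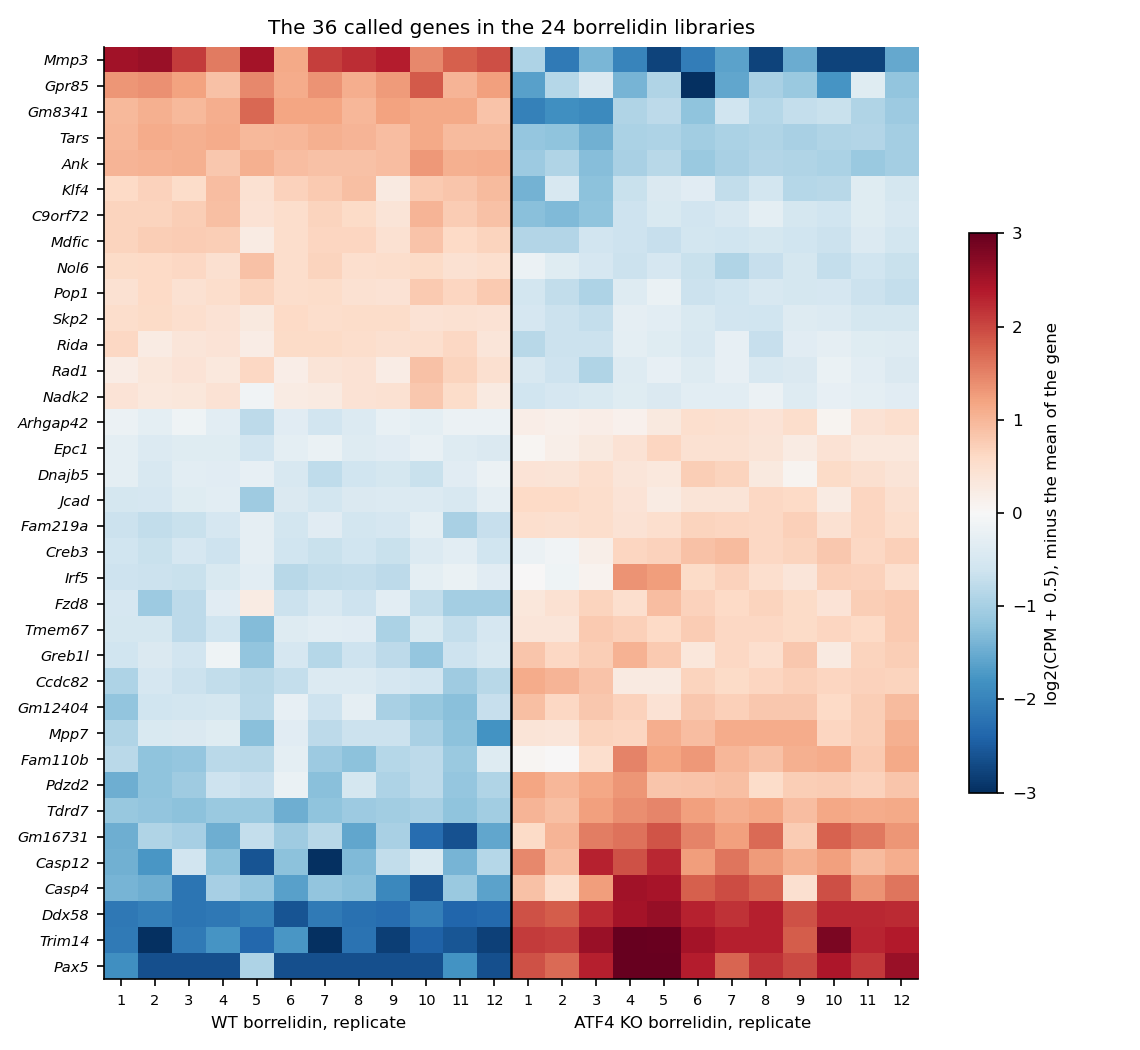
Levels of the 36 called genes (rows) in the 24 borrelidin libraries (columns, by replicate), as log2(CPM + 0.5) minus the mean of the gene. In each row all 12 WT libraries lie on one side of all 12 ATF4 KO libraries, and ATF4 KO replicates 1 to 3 differ in shade from replicates 4 to 12 in genes such as C9orf72 and Creb3. The genes were chosen on these same libraries, which favours the split between the lines.

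Tars (ENSMUSG00000022241, chr15:11382301-11399665, minus strand) encodes threonyl-tRNA synthetase, the enzyme borrelidin inhibits. Under borrelidin its level was lowest at 3006, median 3181 and highest at 3487 CPM (counts scaled to library size) in the 12 WT libraries, and 579, 811 and 852 CPM in the 12 ATF4 KO libraries. No ATF4 KO library came near the lowest WT library. WT was higher by 2.05 ± 0.09 on the log2 scale (SE, adjusted p = 8.05e-26, edgeR quasi-likelihood test). ATF4 KO replicates 1 to 3 were below the others, at 579 to 703 CPM, and without them the value was 1.98. Under vehicle the means were 931 CPM in WT and 622 CPM in ATF4 KO, so borrelidin libraries stood at 3.46 times the vehicle mean in WT and at 1.25 times in ATF4 KO. WT vehicle replicates 9 to 11 stood apart from replicates 1 to 8 and averaged 1271 CPM, so the WT ratio would be smaller against them alone.

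The letters TTNCATCA, the core of the amino acid response element, were searched on both strands in RefSeq promoter windows (GRCm38.p6) of 250 bases before and 50 after each start. They occur in 3.97% of all promoter windows, and in 4.51% of genes. Among the tested genes of the stretches with a window, 9 of 233 (3.86%) had them. Of the 36 called genes 23 have a window, and the letters were found in 2 of 9 genes higher in WT and in 0 of 14 lower in WT. The stretches around both matches are shown because Tars and Mdfic are also the genes whose gap between the lines differed between borrelidin and vehicle at 1e-10. The match is in capitals, each stretch runs 5′ to 3′ along its gene, and the match in Mdfic reads on the opposite strand.
Tars, chr15:11399659-11399735, minus strand: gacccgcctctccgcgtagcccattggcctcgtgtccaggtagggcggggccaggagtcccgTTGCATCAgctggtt
Mdfic, chr6:15720660-15720687, plus strand: aatccggataTGATGAAAgggagccaca
Counted from the RefSeq start, the match in Tars ends 7 bases before it, and that in Mdfic begins 9 bases after it. A match describes the letters and is not a measured binding site.

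Of 4 tested genes of tRNA charging and processing 2 were called, both higher in WT, and the other 2 did not pass 0.05. Beside Tars this was Pop1, a subunit of RNase P and RNase MRP, which trim tRNA and rRNA precursors. Its WT libraries ran from 371 to 480 CPM (median 402) and its ATF4 KO libraries from 145 to 241 CPM (median 185), a gap of 1.15 ± 0.06. The other members were Trmt10b, a tRNA methyltransferase (-0.11, adjusted p = 0.365), and Rars2, the mitochondrial arginyl-tRNA synthetase (0.12, adjusted p = 0.375). Of 10 tested genes of ribosome biogenesis and ribosomal proteins 2 were called higher, 0 lower, and 7 passed 0.05 on the higher side against 1 on the lower side, where 27.9% of the 390 genes passed on each side. The median of that list was 0.43. Nol6, a nucleolar protein of the small subunit processome, ran from 475 to 630 CPM (median 508) in WT and from 184 to 303 CPM (median 224) in ATF4 KO, a gap of 1.16 ± 0.06 (adjusted p = 4.56e-21). Smaller gaps past 0.05 were those of Rpl30, a ribosomal protein of the large subunit (0.67), Polr1e, a subunit of RNA polymerase I (0.58), Brix1, a large subunit assembly factor (0.45), and Tex10 (0.40, adjusted p = 4.9e-07). Dnajc21, a co-chaperone of 60S maturation, was lower in WT by the same threshold (-0.22).

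Among 9 stress-inducible genes 2 were called higher in WT and 1 lower, with a list median of 0.46. Mdfic (ENSMUSG00000041390, chr6:15720661-15802169), a cysteine-rich protein with a MyoD family inhibitor domain, ran from 293 to 448 CPM (median 391) in WT and from 135 to 187 CPM (median 163) in ATF4 KO. The gap was 1.26 ± 0.07 (adjusted p = 6.16e-21). Its ATF4 KO libraries with borrelidin averaged 161 CPM, close to the vehicle means of 133 CPM in WT and 150 CPM in ATF4 KO. Klf4 (chr4:55527143-55532466), a zinc finger transcription factor, ran from 56.2 to 90.0 CPM (median 77.8) in WT and from 17.0 to 36.2 CPM (median 30.2) in ATF4 KO, a gap of 1.41 ± 0.12. Hilpda, a lipid droplet protein induced by hypoxia, was higher by 0.90 (adjusted p = 7.4e-08), and Osgin2 by 0.47 (adjusted p = 2.5e-05). Creb3, a bZIP factor anchored in the ER membrane, went the other way: 185 to 247 CPM (median 196) in WT and 263 to 575 CPM (median 467) in ATF4 KO, a gap of -1.12 ± 0.10. The plot of levels by library shows these genes beside the antiviral genes.

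**Figure D2:**
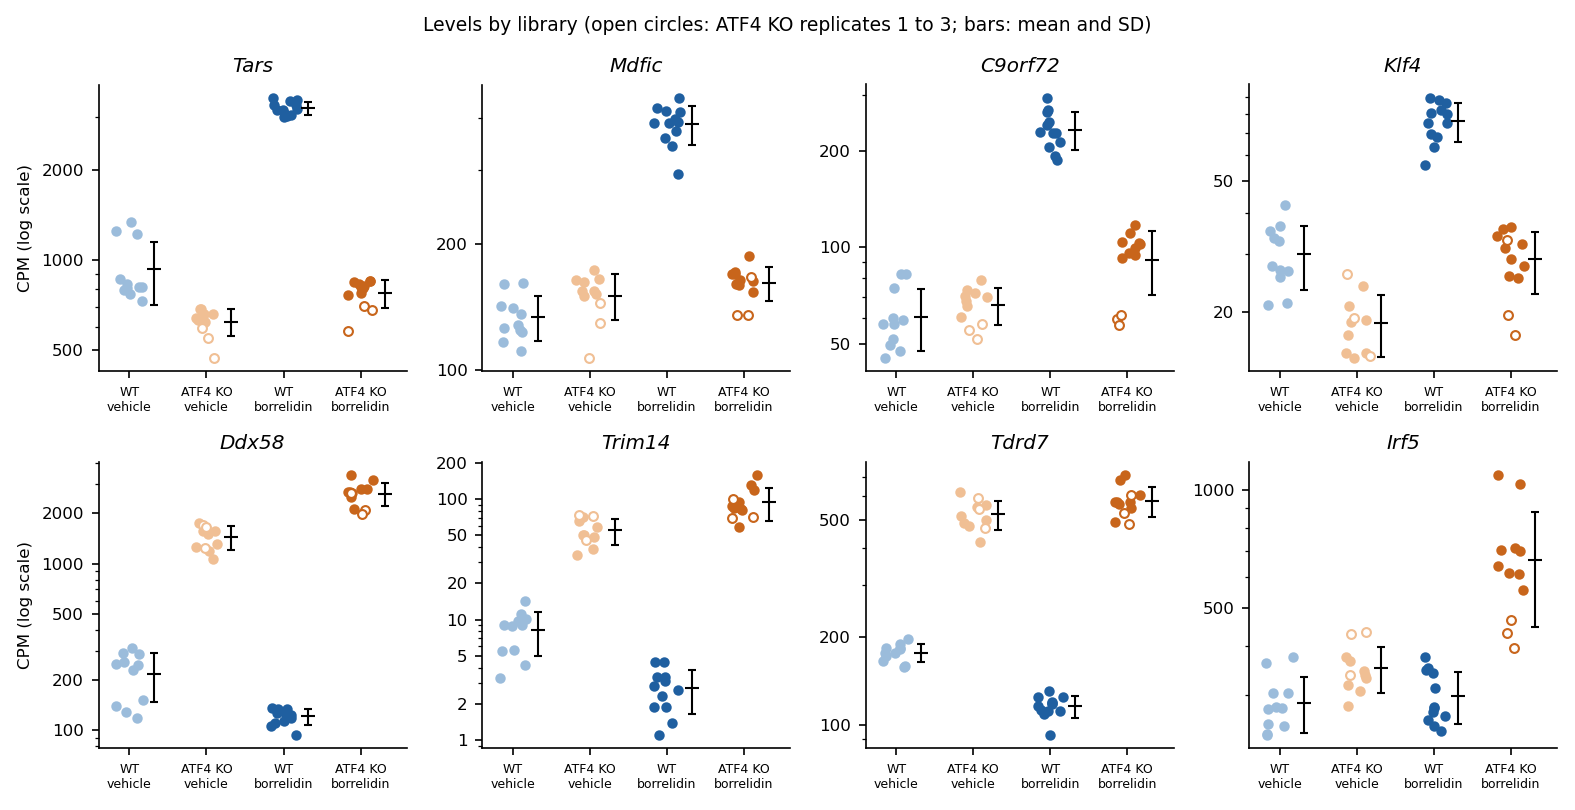
Library-scaled counts (CPM, log scale) of 8 genes in every library of the 4 groups. Points are libraries, open circles are ATF4 KO replicates 1 to 3, and black bars are the mean and SD of each group. In Tars, Mdfic, C9orf72 and Klf4 the WT borrelidin libraries lie above all others, and in Ddx58, Trim14, Tdrd7 and Irf5 the ATF4 KO borrelidin libraries lie above the WT borrelidin libraries.

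In the list of autophagy and lysosome genes 1 of 10 was called, C9orf72, whose protein acts with Smcr8 as a regulator of small GTPases in autophagy. It ran from 188 to 294 CPM (median 229) in WT and from 57.2 to 117 CPM (median 97.7) in ATF4 KO, a gap of 1.35 ± 0.11 (adjusted p = 3.71e-15). ATF4 KO replicates 1 to 3 were the lowest, at 57.2 to 61.5 CPM, and the gap without them was 1.19. Retreg1, an ER-phagy receptor, was lower in WT (-0.73, adjusted p = 1.04e-09) and so was Stx17, the autophagosomal syntaxin (-0.42, adjusted p = 1.04e-07). The median of the list was -0.01, beside 0.01 over the 390 genes, so its members did not move one way.

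Of 22 genes of ER-associated degradation and ubiquitin 1 was called higher and 1 lower, 8 and 6 passed 0.05 in each direction, and the median was 0.03. Skp2, the F-box protein through which an SCF ligase marks p27 for degradation, ran from 337 to 414 CPM in WT (median 393) and from 168 to 228 CPM in ATF4 KO (median 193), a gap of 0.98 ± 0.07. In WT the borrelidin and vehicle means were both 387 CPM, and in ATF4 KO the borrelidin mean was 0.68 times the vehicle mean. WT vehicle replicates 9 to 11 alone averaged 476 CPM. March6, an ER membrane ubiquitin ligase, was higher by 0.54 (adjusted p = 2.47e-09) and Vcp, the ATPase that extracts ubiquitinated proteins, by 0.25 (adjusted p = 0.0034). Ubap1 of the ESCRT pathway was lower (-0.40, adjusted p = 0.00029). The call on the lower side was Trim14, described with the antiviral genes.

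Metabolic and mitochondrial genes gave 2 calls, both higher in WT. Rida, which removes reactive imines, ran from 54.8 to 72.5 CPM in WT and from 25.96 to 39.0 CPM in ATF4 KO, a gap of 0.93 ± 0.09 (adjusted p = 6.08e-12). Nadk2, the mitochondrial NAD kinase, ran from 139 to 262 CPM in WT and from 99.6 to 132 CPM in ATF4 KO, a gap of 0.76 ± 0.08. Both lie on chromosome 15 beside another gene called higher. Rida reaches to 34495255 and Pop1 begins at 34495304, and Nadk2 reaches to 9110891 and Skp2 begins at 9111985. Whether such neighbours differ for a shared local reason was not tested. Of 12 tested metabolic enzymes 7 passed 0.05 on the higher side and 2 on the lower side, with a median of 0.25. Grhpr, glyoxylate reductase, was higher by 0.83 (adjusted p = 2.54e-08), and Galt, of galactose metabolism, was lower (-0.48, adjusted p = 3.82e-05). Of 12 tested mitochondrial genes 8 did not pass 0.05, and Cox6c, a subunit of cytochrome oxidase, was higher by 0.68 (adjusted p = 7.77e-07).

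Other genes called higher in WT belonged to the cell surface, the matrix and DNA repair. Ank, which exports ATP and pyrophosphate, ran from 437 to 613 CPM in WT (median 506) and from 101 to 140 CPM in ATF4 KO (median 126), a gap of 2.01 ± 0.09 that was already 1.497 under vehicle. Mmp3, the matrix protease stromelysin, was scarce: 17 to 58 reads per library in WT and 0 to 5 in ATF4 KO, where 4 libraries had none. Its fitted gap was 4.81 ± 0.32, and 3.94 under vehicle. Mmp13 (1.43, adjusted p = 5.2e-06) and Mmp10 (1.13, adjusted p = 0.00068), neighbouring proteases, were also higher by the looser threshold, with gaps of -0.37 and -0.33 under vehicle that did not pass it. Gpr85, an orphan receptor, ran from 15.95 to 31.9 CPM in WT and from 0.64 to 6.45 CPM in ATF4 KO (2.55 ± 0.18). Rad1, of the 9-1-1 DNA damage clamp, was higher by 0.87 ± 0.09 (98.2 to 157 CPM against 45.0 to 73.8 CPM). Gm8341 is annotated as a processed pseudogene and ran from 66.0 to 120 CPM in WT and from 8.48 to 23.7 CPM in ATF4 KO (2.23 ± 0.17). Reads from a near-identical parent gene could be counted there, so its gap is uncertain.

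**Figure D3:**
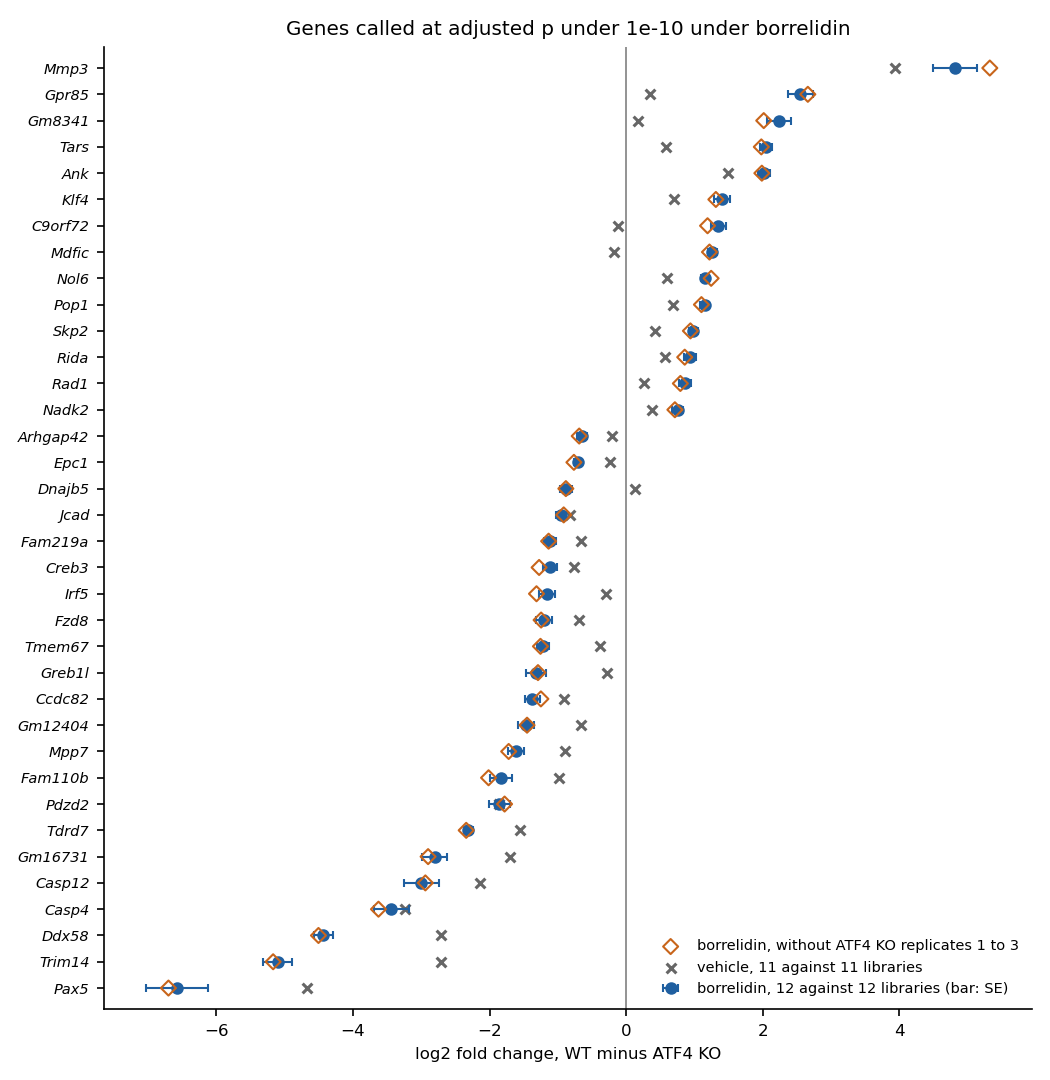
Log2 fold change, WT minus ATF4 KO, of the 36 called genes. Circles with bars are the borrelidin comparison and its SE, open diamonds the same without ATF4 KO replicates 1 to 3, and crosses the vehicle comparison. The diamonds stay on the side of the circles in every gene. The genes were chosen by the circles, so a cross nearer 0 is favoured by that choice.

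Antiviral and inflammatory genes were lower in WT, that is, higher in ATF4 KO. Of 9 tested genes 6 were called lower and 0 higher, and 8 passed 0.05 on the lower side. Their median was -2.31, beside 0.01 over the 390 genes. Ddx58 (ENSMUSG00000040296, chr4:40203773-40239828) encodes RIG-I, the cytosolic sensor of viral RNA. Its libraries ran from 93.4 to 137 CPM (median 124) in WT and from 1974 to 3409 CPM (median 2674) in ATF4 KO, a gap of -4.44 ± 0.14 (adjusted p = 8.58e-31). The lowest ATF4 KO library stood far above the highest WT library. Trim14 (chr4:46493781-46536141), a mitochondrial adaptor in RIG-I signalling, ran from 1.10 to 4.46 CPM (median 2.71) in WT and from 58.7 to 159 CPM (median 85.7) in ATF4 KO, a gap of -5.10 ± 0.21. Tdrd7 (chr4:45965334-46034761), an interferon-induced Tudor protein, ran from 92.6 to 131 CPM (median 118) in WT and from 483 to 710 CPM (median 573) in ATF4 KO. Its gap of -2.31 ± 0.07 had the smallest adjusted p of the 390 genes, 4.7e-32.

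Irf5, a transcription factor of interferon and cytokine genes, ran from 244 to 375 CPM (median 279) in WT and from 395 to 1094 CPM (median 627) in ATF4 KO. ATF4 KO replicates 1 to 3 were lowest, at 395 to 465 CPM, and the gap was -1.15 ± 0.12 with them and -1.31 without them. The inflammatory caspases were scarce. Casp4 had 1 to 7 reads per library in WT and 22 to 101 in ATF4 KO (-3.44 ± 0.25), and Casp12 had 0 to 9 reads in WT and 33 to 112 in ATF4 KO (-2.999 ± 0.26). They are paralogs that lie next to each other, and reads may be shared between them. Ripk2, a kinase below NOD receptors, was lower by the looser threshold (-0.42, adjusted p = 0.000758), as was Ccl27a (-0.48, adjusted p = 0.035), which has near-identical copies. Il11ra1 did not pass it (-0.15, adjusted p = 0.41). Of 6 genes of NF-κB signalling 0 were called in either direction, and 4 passed 0.05 on the lower side with Birc2 (-0.49) and Birc3 (-0.46), inhibitors of apoptosis, in front.

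The letters GAAANNGAAA, the core of the interferon response element, were searched in the same windows on both strands, a choice made after the values were seen. They occur in 3.44% of all promoter windows (3.99% of genes), in 1 of 9 genes higher in WT (Skp2) and in 2 of 14 lower in WT. Among the tested genes of the stretches with a window, 12 of 233 (5.15%) had them. The 2 lower in WT are shown, since they are the antiviral genes with the smallest adjusted p, and the Skp2 match is not printed. Here too a match is not a measured binding site.
Ddx58, chr4:40239804-40239833, minus strand: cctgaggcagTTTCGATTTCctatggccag
Tdrd7, chr4:45972047-45972145, plus strand: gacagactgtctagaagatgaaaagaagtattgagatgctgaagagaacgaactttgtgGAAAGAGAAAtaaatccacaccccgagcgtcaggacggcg
Counted from the RefSeq start, the match in Ddx58 reads on the opposite strand and begins 2 bases after the start, and that in Tdrd7 ends 181 bases before it.

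Lower in WT were also 2 long noncoding RNAs that overlap coding genes. Gm16731 overlaps the start of Trim14 on the opposite strand and had a gap of -2.80 ± 0.18 (1.57 to 7.28 CPM in WT, 18.3 to 46.6 CPM in ATF4 KO). Gm12404 lies inside Fam219a on the opposite strand, with gaps of -1.47 ± 0.12 and -1.12 ± 0.09 for the pair. The strand setting of the counting is not given in the sources used here, so reads of such partners cannot be told apart. The same holds for Creb3 (with Gba2 and Tln1), Irf5 (Tnpo3), Skp2 (Lmbrd2), Ank (Otulin), Tmem67 (Rbm12b2) and Trim14 (Nans). C9orf72 overlaps Gm12366 on its own strand.

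Several genes of cell shape, cilia and signalling were lower in WT. Tmem67, or meckelin, a protein of the ciliary transition zone, ran from 29.7 to 59.5 CPM (median 50.7) in WT and from 94.6 to 128 CPM (median 114) in ATF4 KO, a gap of -1.22 ± 0.09. Of 7 tested genes of centrosome and primary cilium 6 passed 0.05 on the lower side and 0 on the higher side. Over the 390 genes 27.9% passed on each side. The median of the list was -0.38, and under vehicle it was -0.3, beside -0.12 over the 390 genes. After Tmem67 came Cep126 of the cilium base (-0.81, adjusted p = 3.21e-10), then Cep41 (-0.38, adjusted p = 0.000484). Of 18 tested genes of the actin cytoskeleton and focal adhesion 2 were called lower, Jcad, an endothelial junction protein (-0.95 ± 0.08), and Arhgap42 (-0.65 ± 0.07). The median of that list was -0.23, with 8 members past 0.05 on the lower side and 2 on the higher side.

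Of the remaining calls on the lower side, Fzd8, a Wnt receptor, ran from 16.8 to 43.1 CPM in WT and from 45.6 to 68.5 CPM in ATF4 KO (-1.20 ± 0.12). Epc1, of the NuA4 acetyltransferase complex, ran from 118 to 152 CPM in WT and from 184 to 274 CPM in ATF4 KO (-0.71 ± 0.06). Mpp7, a polarity scaffold, had a gap of -1.62 ± 0.12, and Greb1l one of -1.32 ± 0.14. Dnajb5, a co-chaperone of the Hsp40 family, was the single chaperone called, with 27.6 to 41.6 CPM in WT and 49.5 to 79.1 CPM in ATF4 KO (-0.88 ± 0.09). Cct5, a subunit of the TRiC chaperonin, was higher by 0.64 (adjusted p = 0.000481), and the 10 chaperones had a median of 0.12. Pdzd2 (-1.86 ± 0.16), Fam110b (-1.83 ± 0.16) and Ccdc82 (-1.37 ± 0.11) complete the called coding genes below -1 on the log2 scale beside Pax5. Pax5, the B lineage transcription factor, had 4 reads in all 12 WT libraries together and 31 to 107 reads in each ATF4 KO library. Its fitted gap of -6.58 ± 0.45 rests on those 4 reads and changes with the prior count of the fit.

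Lists with few or no calls are given by their medians. Of 13 tested genes of mRNA processing and export 0 were called, and 6 passed 0.05 on the higher side against 2 on the lower side (median 0.29). They were led by Drosha, the microRNA processing nuclease (0.49, adjusted p = 1.94e-10), and Sub1, a transcription coactivator (0.82, adjusted p = 2.63e-10), both just outside the call, and by Snd1 (0.50). Pabpc1, the abundant poly(A)-binding protein, was at 8107 CPM in WT and 5604 CPM in ATF4 KO (0.53, adjusted p = 1.9e-06). Median gaps were 0.16 for sialic acid and glycosylation (9 genes, 0 called), 0.03 for Golgi and vesicle transport (12, 0 called) and -0.07 for the Hippo pathway (4, 0 called). They were 0.03 for DNA damage and repair (11 genes), 0.03 for the cell cycle (6), 0.19 for chromatin regulators (4) and -0.27 for transcription factors (13). In the matrix list the median was 0.23 over 11 genes, with Reck, an inhibitor of metalloproteases (-1.06, adjusted p = 3.21e-08), and Pdgfd (-1.82, adjusted p = 6.6e-08) lower. For caveolins and membrane receptors the median was -0.08 over 17 genes, with Smo, the Hedgehog signal transducer, higher (0.69, adjusted p = 5.06e-10). The plot of gene lists gives each member.

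**Figure D4:**
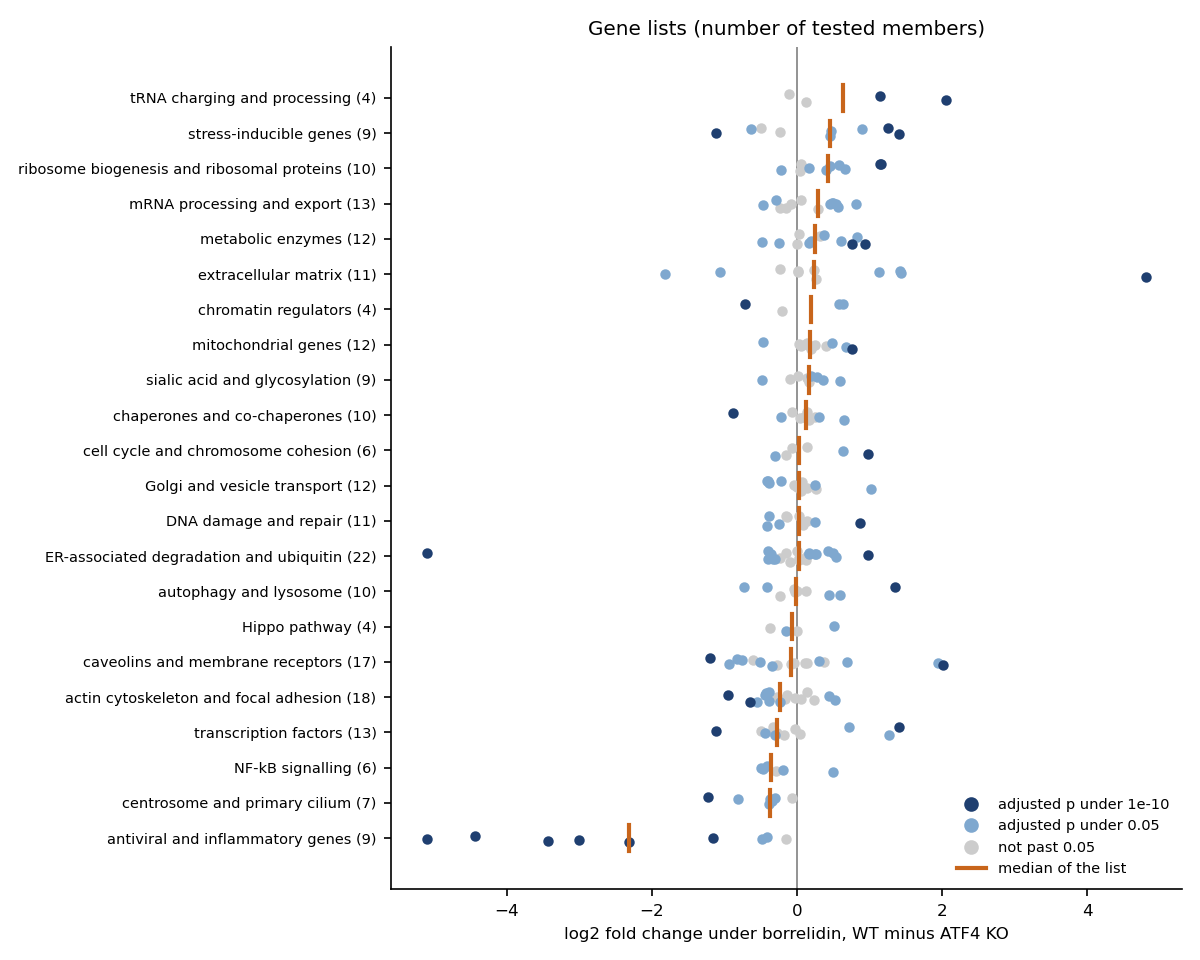
Log2 fold change under borrelidin, WT minus ATF4 KO, of the tested members of 22 gene lists (number of members in brackets), ordered by the list median (orange bar). Dark points passed an adjusted p of 1e-10, lighter blue points 0.05, and grey points neither; the antiviral list is the one with a median of -2.31, and the others lie between -0.38 and 0.64.

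The same lines were compared without the drug. Under vehicle 3 of the 390 genes were higher in WT and 8 were lower at 1e-10, against 0.868% and 1.76% of all rows. Of the 14 genes called higher under borrelidin, 3 were also called higher under vehicle, Mmp3, Ank and Pop1. Of the 22 called lower, 8 were also called lower under vehicle. Over all rows the counts were 38 of 235 and 133 of 258. At an adjusted p of 0.05, 10 of the 14 and 19 of the 22 passed under vehicle with the same sign. Among the antiviral genes Ddx58 had a gap of -2.71, Trim14 of -2.72 and Tdrd7 of -1.56 under vehicle. Without WT vehicle replicates 1 to 8 and ATF4 KO replicates 1 to 3 these were -3.44, -3.58 and -1.68. Irf5 (-0.29, adjusted p = 0.058) and Greb1l (-0.28, adjusted p = 0.13) did not pass 0.05 there, and neither did Gpr85, Gm8341, C9orf72, Mdfic and Dnajb5 (the plot of both gaps). Some of these rest on the library sets. Mdfic passed 0.05 without ATF4 KO replicates 1 to 3 (-0.24, adjusted p = 0.00265), and Gm8341 passed it when WT vehicle replicates 1 to 8 were left out as well (0.67, adjusted p = 0.000757). With both sets left out Mdfic did not pass it (-0.04, adjusted p = 0.787, edgeR quasi-likelihood test). For Greb1l the WT vehicle mean was 46.3 CPM in all libraries and 25.8 CPM in replicates 9 to 11, beside 51.5 CPM in ATF4 KO vehicle replicates 4 to 12. Over the 390 genes the gaps under vehicle and under borrelidin, which share no library, had Pearson's r = 0.667 across genes; genes are not independent replicates, and both gaps hold the difference of the lines.

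**Figure D5:**
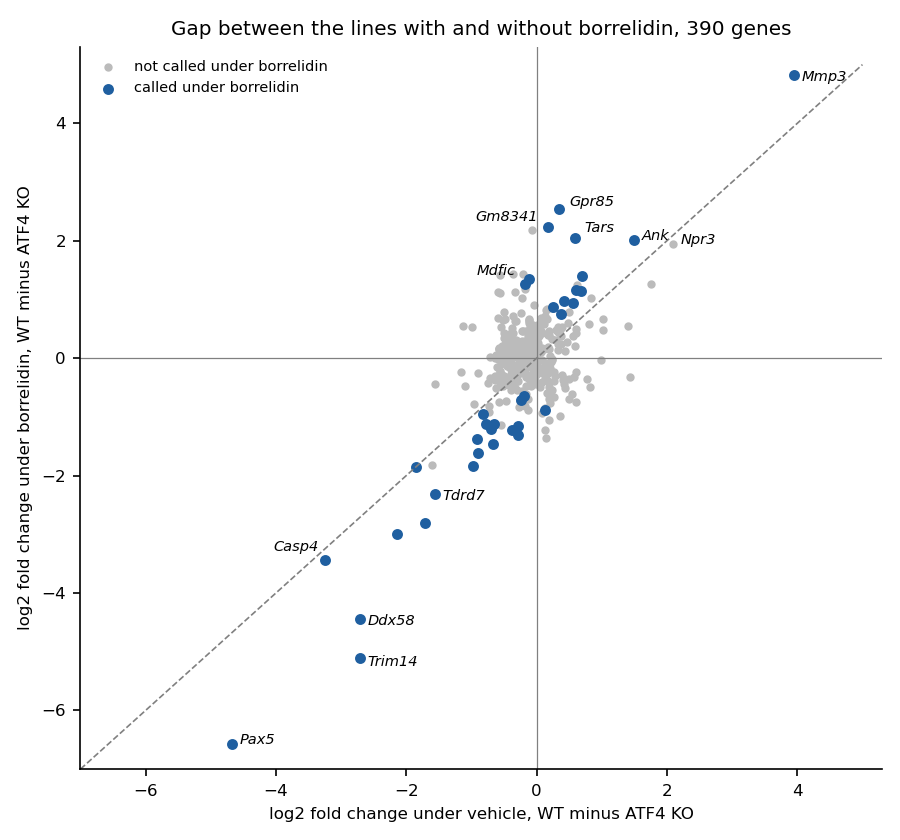
Log2 fold change of WT minus ATF4 KO under vehicle (x axis) and under borrelidin (y axis) for the 390 genes, with the 36 called ones in blue. The dashed line marks equal gaps; Tars, Mdfic and Gpr85 lie above it, at 0.58 or less on the x axis, and Ddx58, Trim14 and Pax5 lie below it.

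Whether the gap itself differed between borrelidin and vehicle was tested by the interaction of line and drug. At 1e-10 the gap was higher under borrelidin in 2 of the 390 genes, beside 0.501% of all rows, and lower in 0, as in 0% of all rows (edgeR quasi-likelihood test; 2148 rows were lower at an unadjusted p under 0.05, 12 were lower at 1e-10 with DESeq2 and 0 with limma voom). The 2 genes were Tars, where the difference was 1.47 ± 0.12 (adjusted p = 1.3e-13), and Mdfic, where it was 1.43 ± 0.10 (adjusted p = 1.15e-15). C9orf72 (1.47, adjusted p = 3.89e-10) and Ddx58 (-1.72, adjusted p = 1.19e-10) lay just outside the threshold. The mean of Ddx58 with borrelidin was 0.55 times the vehicle mean in WT and 1.83 times in ATF4 KO. The WT value rests on vehicle replicates 1 to 8, since replicates 9 to 11 averaged 129 CPM, beside 121 CPM with borrelidin. For Trim14 the ratios were 0.33 in WT and 1.72 in ATF4 KO, and WT vehicle replicates 9 to 11 averaged 4.33 CPM beside 2.73 CPM with borrelidin. Without WT vehicle replicates 1 to 8 and ATF4 KO replicates 1 to 3, which leaves 3 WT vehicle libraries, the difference was 1.02 for Tars and 1.26 for Mdfic, both past 1e-10. It was -1.07 for Ddx58 and -1.59 for Trim14, which had been -2.38, and both were outside 1e-10 with and without these libraries. For C9orf72 the difference was then 0.995 (adjusted p = 4.56e-07, edgeR quasi-likelihood test).

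Without ATF4 KO replicates 1 to 3 the borrelidin comparison kept 33 of the 36 calls. The 3 that no longer passed 1e-10 were Rad1 (0.79, adjusted p = 1.89e-10), Dnajb5 (-0.88, adjusted p = 3.75e-10) and Greb1l (-1.29, adjusted p = 7.48e-10). The 6 that passed it then were Npr3, a natriuretic peptide clearance receptor (1.94 with all libraries, 2.43 without those 3), Tmeff1 (1.25, 1.11), Cep126 (-0.81, -0.91), Retreg1 (-0.73, -0.80), Tspyl5 (-1.37, -1.51) and Zfp438 (-0.82, -0.99). No gene past 0.05 turned direction and none moved by more than 1.5 times. Under 8 alternatives of normalization, filter, test and libraries, 27 of the 36 calls passed 1e-10 each time. In the borrelidin libraries alone with the replicate number as a block, an alternative chosen after seeing the data, 12 of the 36 did. The 9 lost under at least 1 of the 8 were Arhgap42, Casp12, Casp4, Dnajb5, Fzd8, Greb1l, Irf5, Nadk2 and Rad1.

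The labelled cell type was checked by markers that lie in the named stretches. All 12 fibroblast markers were detected, with a summed level of 4056 to 5298 CPM in WT and 3719 to 5539 CPM in ATF4 KO under borrelidin. Much of it was Flnc, which averaged 2476 CPM in WT and 2097 CPM in ATF4 KO, whereas Adamts12 averaged 5.07 and 4.26 CPM. Of 4 markers of T and other blood cells 2 were tested, with sums of 254 to 386 CPM in WT and 412 to 1106 CPM in ATF4 KO, nearly all of it Irf5; Ccl19 had 0 reads in all libraries and Il7r did not pass the filter. The B cell pair summed to 70.8 to 151 CPM in WT and 88.4 to 145 CPM in ATF4 KO, carried by Cd72. Of the epithelial markers 1 of 5 was tested, Cftr, at 4.96 to 9.74 CPM in WT and 0.64 to 3.74 CPM in ATF4 KO (2.18 ± 0.32, adjusted p = 1.8e-07). Neural (2 of 7 tested), germ cell (1 of 3) and muscle markers (2 of 3) had overlapping sums, at most 20.9, 22.8 and 91.2 CPM. The part of blood cell genes in the gap of Irf5 and Pax5 was not tested.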

How the data were processed

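RNA-seq counts of 46 MEF libraries were used, of which the 24 with borrelidin make the comparison. Reads were processed by the authors (fastp and HISAT2, with feature counts per the paper and HTSeq per the submitters' processing notes, which name mm10), and the deposited values are raw, unpooled counts for each mouse gene identifier. Not given in the sources used here are versions, the strand setting and the annotation release. Of each library, 89.1% of reads on average lay in 5 rows that name no gene, and these stayed out of library sizes and tests. Reads without a feature were 63.8% to 70.9% per borrelidin library. Identifiers were matched to GENCODE M21 (52083 of 55416 found). Genes were named only in 109.5 Mb of GRCm38 (chromosome 15 from 9.07 to 37.01 Mb, 18 from 4.63 to 10.56, 4 from 5.64 to 55.53, 6 from 13.83 to 31.56 and 9 from 5.31 to 13.29), where levels matched their identifiers in an earlier comparison with the study's own table. Shifts of the counted intervals inside these stretches could not be checked, so a row may hold only part of its gene.

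The test was edgeR's quasi-likelihood test (4.0.16, in R 4.3.3), after TMM scaling and the filterByExpr filter with its defaults for 4 groups, and p-values were adjusted by Benjamini-Hochberg over 8986 rows. All 46 libraries entered the fit, and the contrasts of group means were WT minus ATF4 KO under borrelidin, the same under vehicle, and their difference. CPM are TMM-normalized, counts between genes are not corrected for length, and SE are of the log2 fold change. On simulated counts of the 8986 rows of the borrelidin contrast, 0% of changes of 0.5, 26.9% of 1 and 75.8% of 2 on the log2 scale were called at 1e-10, and 40.3%, 74.6% and 95.5% at 0.05, with 0 and 5 false calls. Only 67, 67 and 66 rows were changed, in WT borrelidin alone, and no separate set of ATF4 KO replicates was simulated. In the data 2168 and 2306 rows passed 0.05, which shifts the adjusted threshold, so these shares need not hold there. All pairs of libraries within the borrelidin groups differed by more than counting noise (chi-square per degree of freedom 1.89 or above).

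The comparison, the gene lists (22, with 7 marker lists) and the tests were chosen with earlier results of these data known. Named were the 15 largest and 15 smallest fold changes among calls with mean log2 CPM of 3 or more, every called member and the 3 smallest p of each list, genes called for the difference of gaps, Tars, the markers, and genes whose call changed without ATF4 KO replicates 1 to 3. Other called and listed genes named in the text were chosen after their values were seen. Alternatives were median ratio size factors, no filter on low counts, DESeq2 1.42.0, limma 3.58.1 with voom, the replicate number as a block, libraries left out, the borrelidin libraries alone and other thresholds. Promoter windows were taken from RefSeq, and tables were made in Python 3.11.15. Sample groups came from the labels. Intervals for depth are not given, since the spread between replicates is used.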

Additional observations from a re-analysis of the deposited data

Results flagged for a closer look

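The gap between the lines differed between borrelidin and vehicle for Tars, by 1.47 on the log2 scale, and for Mdfic, by 1.43 (edgeR quasi-likelihood test of the interaction, at an adjusted p of 1e-10). Over the alternatives the difference ran from 1.02 to 1.504 for Tars and from 1.26 to 1.47 for Mdfic, and it passed 1e-10 in each of the 7. Over all rows the gap was higher under borrelidin in 45, whose identifiers lie mostly where genes are not named here. The lowest count of such rows, 14, came without WT vehicle replicates 1 to 8 and ATF4 KO replicates 1 to 3, and the highest, 112, with DESeq2.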

How the results depend on the processing

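Of 73 genes of the borrelidin comparison, 657 values under 9 alternatives kept their direction. Of 112 values of the vehicle gap and of the difference of gaps in 8 genes, 2 turned: C9orf72 under vehicle, -0.12, was 0.20 (0.195) without WT vehicle replicates 1 to 8 and ATF4 KO replicates 1 to 3, and Gm8341 under vehicle, 0.18, was -0.02 (-0.015) without ATF4 KO replicates 1 to 3. None of these 4 values passed 0.05. The number of the 36 calls kept was 36 with median ratio size factors and with DESeq2, 34 without the filter on low counts, 33 with limma voom, 33 without ATF4 KO replicates 1 to 3, 30 with the borrelidin libraries alone and 31 with these and without ATF4 KO replicates 1 to 3. The causes were not tested.

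Counts of calls moved as follows, given as higher and lower in WT. Under borrelidin, all rows (235 and 258) gave 466 and 442 with DESeq2, 146 higher with borrelidin libraries alone, 2168 and 2306 at 0.05, and 382 and 565 at 0.05 with at least 1 on the log2 scale. The named genes (14 and 22) gave 27 higher with DESeq2, 109 and 109 at 0.05, and 23 higher with the size limit. Under vehicle, all rows (78 and 158) gave 204 and 267 with DESeq2, 9 and 89 without WT vehicle replicates 1 to 8 and ATF4 KO replicates 1 to 3, 1547 and 1625 at 0.05, and 367 and 241 with the size limit. The named genes (3 and 8) gave 6 and 20 with DESeq2, 5 lower with limma voom, 5 lower without those vehicle and ATF4 KO libraries, 44 and 116 at 0.05, and 8 higher with the size limit. For the difference of gaps, all rows (45 and 0) gave 112 and 12 with DESeq2, 3 lower without the filter, 14 higher without those vehicle and ATF4 KO libraries, 1486 and 1536 at 0.05, and 259 and 568 with the size limit. The named genes (2 and 0) gave 6 and 4 with DESeq2, 4 and 2 without the filter, 6 higher without ATF4 KO replicates 1 to 3, 111 and 60 at 0.05, and 21 and 14 with the size limit.

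Replicate numbers are shared between the groups. Deviations from the group mean of same-numbered WT and ATF4 KO borrelidin libraries correlated over 0.1 in 3 of 12 pairs (-0.094 to 0.173). Whether same-numbered libraries shared a culture day or batch cannot be told from these correlations. With the replicate number as a block in the fit of all libraries 34 of the 36 calls were kept, the calls were 239 higher and 258 lower over all rows and 19 and 20 in the named genes, and the difference of gaps was called in 4 named genes. In the borrelidin libraries alone with the replicate block, an alternative added after seeing the data, 12 of the 36 were kept, with 64 and 117 calls over all rows and 7 and 5 in the named genes. That fit has fewer samples and more terms.

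Depth was 2047362 to 3320558 counts per library. In the simulated counts 0% of changes of 0.5 and 26.9% of 1 on the log2 scale were called at 1e-10. The parts of depth, spread between replicates and threshold in this were not tested. Genes with few reads (Pax5, Mmp3, Casp4, Casp12) have fitted values that depend on the prior count.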

Other observations

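Car8, which encodes a protein related to carbonic anhydrases, was at a pair of separate levels in all groups. It was chosen after its values were seen. Of the 46 libraries 22 lay at or below 2.80 CPM and 24 at or above 21.4 CPM, with none between. In WT with borrelidin the 4 low libraries were replicates 5 to 8 (0.69 to 2.80 CPM) and the 8 high ones ran from 32.4 to 55.0 CPM. In ATF4 KO with borrelidin replicates 1 and 6 to 9 were low (0.73 to 1.85 CPM), and the other 7 ran from 29.3 to 45.2 CPM. With vehicle 6 of 11 WT and 7 of 11 ATF4 KO libraries were low. The gap between the lines under borrelidin was 0.31 ± 0.68 (adjusted p = 0.72). The levels therefore split within each group and not between the lines.

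Npr2, a natriuretic peptide receptor, was at 361, 346 and 346 CPM in ATF4 KO borrelidin replicates 1 to 3, at 147 to 202 CPM in replicates 4 to 12, and at 104 to 132 CPM in WT with borrelidin. Its gap was -0.94 with replicates 1 to 3 and -0.63 without them. With vehicle it was at 199 to 298 CPM in WT replicates 1 to 8 and at 126 to 139 CPM in WT replicates 9 to 11.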
